A study of Mus musculus with 2 samples.

Results

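The class I olfactory receptor genes examined here are the 126 protein-coding genes with a symbol of Olfr plus a number that lie between 102 and 105.5 Mb of mouse chromosome 7 (build mm10), out of 21774 protein-coding genes placed on chromosomes 1 to 19, X and Y. They were chosen by name and position, and no peak value enters that rule. They ran from Olfr543, starting at 102476773, to Olfr692, ending at 105369317, a span of 2.89 Mb, and no Olfr gene lay near either limit. The nearest below was Olfr521, 2709 kb away with 1 library 1 peak (fold 2.98), and the nearest above was Olfr693, 1308 kb away with none. That the members belong to class I rests on their position, and was not checked against protein sequence.

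The study addresses functions of the core histone H3.2 in the eye. Chromatin from snap-frozen heads of mouse embryos at E10.5 was precipitated with a GFP antibody (GFP is green fluorescent protein) and sequenced. There were 2 libraries, with the same tissue and antibody in their labels, and a separate peak list exists for each. The labels give no strain, sex, genotype, GFP-carrying protein or control, and do not say whether the libraries came from separate embryos, so there was a single group and no contrast between conditions. A whole head holds many tissues, and neither a cell type nor a share of olfactory cells could be read from peak lists. In such bulk material, a signal in fewer cells and a lower signal in each cell cannot be told apart.

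Olfactory receptors are G protein-coupled receptors that detect odorants in sensory neurons of the nose. Class I is the branch related to the receptors of fish, and in the mouse its genes form a large cluster on chromosome 7 that surrounds the beta-globin genes. A mature sensory neuron expresses a single receptor gene and keeps the others in silent chromatin. The coding sequence of a receptor gene usually lies in a single exon, while the promoter can lie some distance upstream of it. At the stage sampled the olfactory pit is only forming.

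Both lists give for each peak a summit and the authors' fold enrichment over background. Library 1 held 584724 peaks and library 2 held 348, with 39617 and 4 of them on chromosome 7. The number of overlapping extended reads at a summit, called the pileup here, was worked out from the deposited fold and p-value. The median pileup was 15 reads in library 1, where the lowest pileup of any peak was 8 reads over a genome-wide background of 2.71, and 82.5 reads in library 2, where the background was 1.05. A gene counted as having a peak where a summit lay in its body or within 1 kb of either end. Intervals are 95% exact intervals (Poisson for counts and densities, Clopper-Pearson for shares, conditional binomial for ratios). Where a count was 0, the limit given is instead the share that 3 counts would make. They cover counting error only, and neighbouring peaks are not independent, so they are too narrow for any statement beyond these lists. No p-value is given, because both libraries belong to a single group and there was no second condition to compare it with.

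Most class I receptor genes had no peak. In library 1, 45 of the 126 members (35.7%, 27.4 to 44.7) had at least 1 peak, where 87.8% of all protein-coding genes did. The other 979 Olfr genes, most of them class II receptors, had one in 271 cases (27.7%, 24.9 to 30.6). Shares differed widely among them, from 10.1% of 286 genes on chromosome 2 to 74.7% of 83 genes on chromosome 11, counting chromosomes with at least 20 such genes. The 111 other Olfr genes of chromosome 7 had a share of 36.04% (27.1 to 45.7), within the interval of the class I members.

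**Figure D1:**
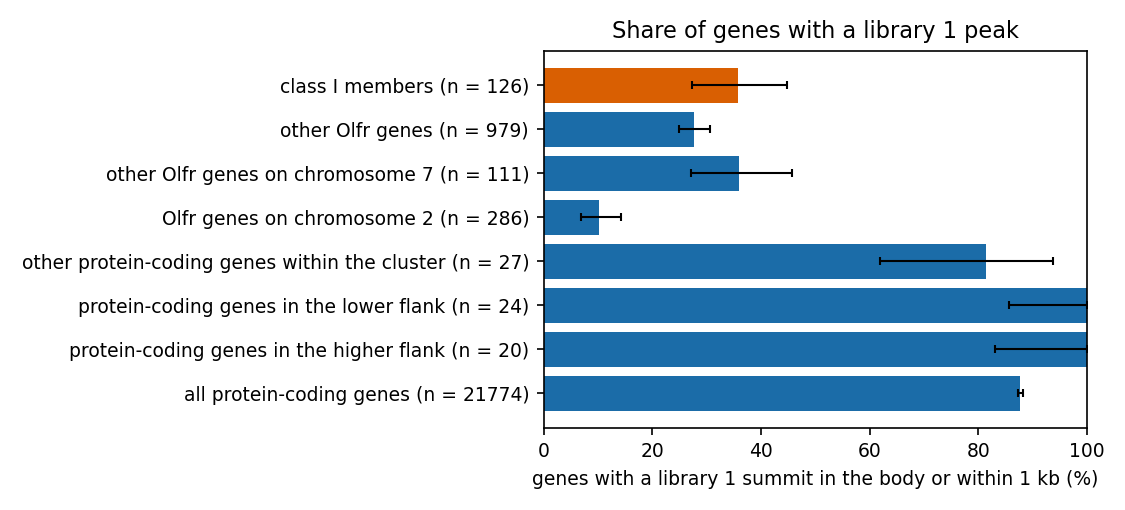
Share of genes (%) that had a library 1 peak, by gene group, with 95% Clopper-Pearson intervals as lines and the number of genes in brackets. The class I members (35.7%) lie close to the other Olfr genes of chromosome 7 (36.04%) and far below all protein-coding genes (87.8%).

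Receptor genes are short. The median length was 957 bp in the members (927 to 48745) and 17219 bp in all protein-coding genes. Per Mb of gene with 1 kb on either side, the members held 138 summits (108 to 174), the other Olfr genes 119.6 (109 to 131) and all protein-coding genes 307 (306 to 308). With these margins included, the members were below all coding genes in density as well as in share. The margins make up more of a short gene's stretch than of a long gene's, so this density does not remove gene length. Bodies are counted apart below.

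No member had a library 2 peak (0 of 126, which allows a share of up to 2.38%), where 0.142% of all protein-coding genes had one. The only library 2 peak in the span lay in Trim30a, a gene of the tripartite motif family, at chromosome 7, 104428029 to 104428079. The fold there was 6.49, the pileup was 30 reads (20.2 to 42.8), and it was 124841 bp from the nearest member. The nearest library 1 summit was 1882 bp away. All results below are therefore from library 1.

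The cluster as a whole was poor in peaks. It held 350 summits in 2.89 Mb, or 121 per Mb (109 to 134), where chromosome 7 as a whole held 278 per Mb. The 1 Mb flank on the lower-coordinate side held 354 per Mb (318 to 393), and the flank on the higher-coordinate side 196 per Mb (170 to 225). The density of the cluster was 0.440 of that of both flanks together (0.384 to 0.504). Peaks covered 3.19% of the bases of the cluster and 7.13% of those of the flanks. The median fold was 4.04 in both, so the difference lay in the number of peaks and not in this measure of their height.

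The flanks hold genes of other kinds, among them Stim1, which encodes a calcium sensor of the endoplasmic reticulum, and Rrm1, which encodes a subunit of ribonucleotide reductase, on the lower side. All 24 protein-coding genes of the lower flank (85.8 to 100%) and all 20 of the higher flank (83.2 to 100%) had a peak. Both intervals hold the 87.8% of all protein-coding genes. With −log10 q of 5 or more, all 24 and 15 of 20 (75%, 50.9 to 91.3) had one, where 75.8% of all protein-coding genes did. With all peaks counted, part of the contrast was between genes, and part was between the sequence among them. Intergenic sequence was taken as everything over 1 kb from a protein-coding gene. It held 99.3 summits per Mb in the cluster (86.1 to 114) and 139 per Mb in the flanks (114 to 168), a ratio of 0.715 (0.563 to 0.911). With −log10 q of 5 or more it held 102 summits in 2.04 Mb of the cluster and 46 in 0.777 Mb of the flanks. No ratio was computed at that threshold, so the intergenic difference rests on the full list. Coding genes of the flanks with 1 kb around them held 362 per Mb (329 to 397).

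**Figure D2:**
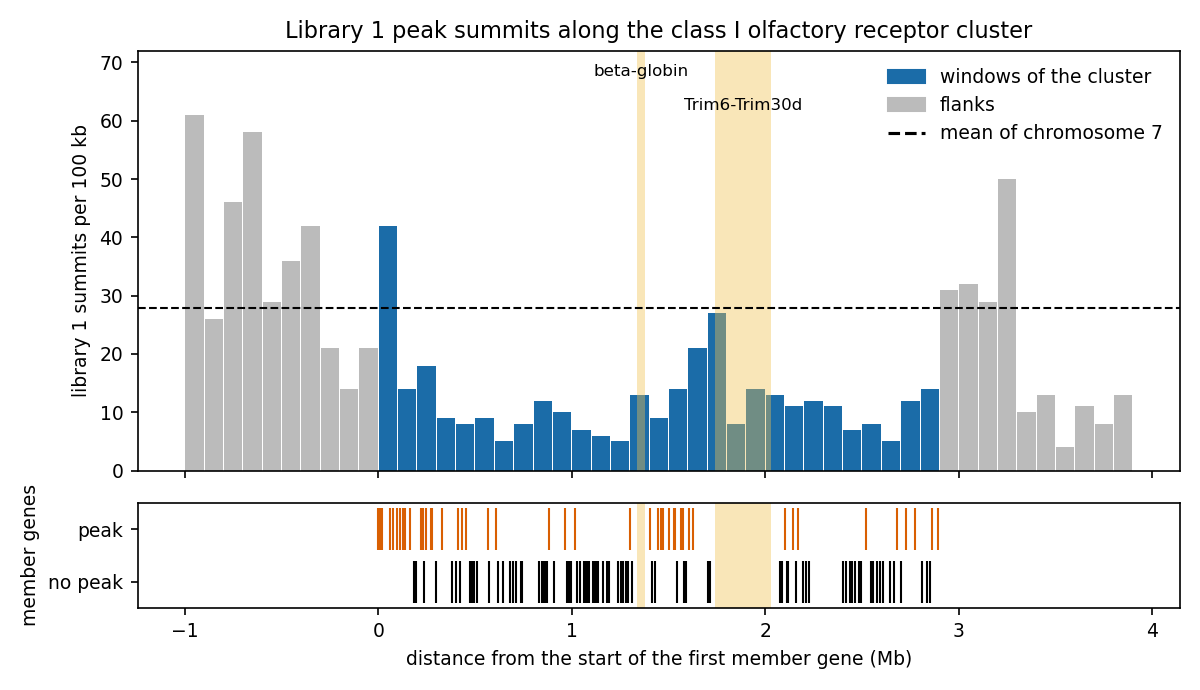
Top, library 1 summits per 100 kb against distance (Mb) from the start of the first member, with the flanks in grey and the mean of chromosome 7 dashed; bottom, each member as a tick, by whether it had a peak. The first window of the cluster holds 42 summits, and the other windows of the cluster hold 5 to 27; narrow and wide yellow bands mark the beta-globin and Trim genes.

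Within the cluster, the receptor genes held slightly more peaks per Mb than the sequence between them. The members with 1 kb around them held 70 summits in 507 kb, or 138 per Mb, which was 1.39 times the density of the intergenic sequence (1.04 to 1.83). That excess was near the limit of counting error: with −log10 q of 5 or more the ratio was 1.30 (0.852 to 1.95), and with members under 2 kb only it was 1.38 (0.978 to 1.92), both intervals including 1. The other 27 protein-coding genes of the span held 225 per Mb (177 to 281), which was 1.63 times the density of the members (1.16 to 2.28). Of these 27, 22 had a peak (81.5%, 61.9 to 93.7). With −log10 q of 5 or more, they held 27 summits in 343 kb and the members 33 in 507 kb. No ratio was computed at that threshold. There 11 of the 27 had a peak (40.7%, 22.4 to 61.2), where 75.8% of all protein-coding genes did.

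The modest ratio of the members to intergenic sequence joined a high density inside the genes to a low one right beside them. Of the 70 member summits, 60 lay in a gene body, and 42 of 126 members had a summit in the body, where 86.2% of all protein-coding genes did. Bodies held 233 summits per Mb (177 to 299). The contrast was sharpest in the 110 members shorter than 2 kb, a limit chosen after seeing the data. Their bodies held 37 summits in 108 kb, or 344 per Mb (242 to 474), and the adjacent 1 kb on either side held 8 summits in 218 kb, or 36.7 per Mb (15.8 to 72.3). The ratio was 9.37 (4.29 to 23.3). Limited to peaks whose −log10 q was 5 or more, the counts were 19 and 5 summits and the ratio was 7.69 (2.78 to 26.4).

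The density stayed low further out and rose again in the distance. Intergenic sequence 1 to 5 kb from a member held 68.2 summits per Mb (51.9 to 88.0), and intergenic sequence over 5 kb from any member held 122 per Mb (103 to 144), close to the mean of the cluster. Among the 95 members under 2 kb with a known strand, the first kb upstream held 4 summits, the body 29 and the first kb downstream 3. Up to 5 kb on either side, no 1 kb step held more than 9.

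**Figure D3:**
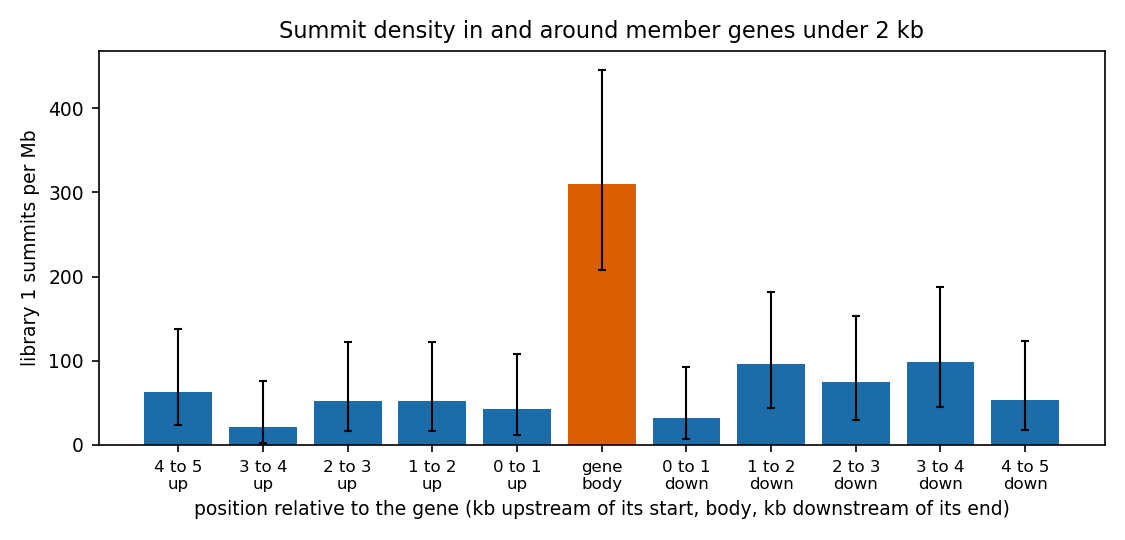
Library 1 summits per Mb in the bodies and in 1 kb steps up to 5 kb upstream and downstream of the 95 members under 2 kb with a known strand, with 95% Poisson intervals as lines. The body (310.5 per Mb) stands above every step outside it (21.1 to 98.8 per Mb).

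Peaks within short members lay around the middle of the gene body. The 29 body summits of these genes lay 54 to 796 bp from the annotated start, with a median of 459 bp. Between 250 and 750 bp from the start lay 24 of them (82.8%), a stretch that makes up 50.9% of the bodies' bases. These bounds were not planned beforehand. In the first 250 bp lay 4, and beyond 750 bp lay 1.

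A body richer in peaks than its surroundings was seen in other short genes as well. Among 846 other Olfr genes under 2 kb the ratio of body to adjacent 1 kb was 6.44 (4.93 to 8.50), and among the 96 of them on chromosome 7 it was 9.71 (4.24 to 25.9). On chromosome 2 it was 2.77 (1.19 to 6.67), from 15 and 11 summits. In 1598 other protein-coding genes under 2 kb it was 3.74 (3.35 to 4.18), with 626 summits per Mb in the body and 167 beside it. The members' interval overlapped that of the other Olfr genes and lay just above that of the short genes with no Olfr symbol, a set that can hold receptor genes of other families. With −log10 q of 5 or more, the ratio in the short genes with no Olfr symbol was 5.13 (4.29 to 6.16), inside the members' interval. The difference between these ratios was not tested. How uniquely reads map to these related coding sequences was not examined.

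Receptor pseudogenes of the same span also had peaks. Of 32 Olfr pseudogenes with a median length of 922 bp, 9 had a peak (28.1%, 13.7 to 46.7). Their bodies held 7 summits in 26.8 kb, or 261 per Mb (105 to 539), a wide interval that holds both the 233 per Mb of all member bodies and the 344 per Mb of members under 2 kb. The difference was not tested. The highest fold was 5.66, at Olfr548-ps1.

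Members with a peak were unevenly placed along the cluster. The 10 members at its lower-coordinate end, from Olfr543 to Olfr554, all had a peak, over 164 kb, and this was the longest unbroken run. In order, their highest folds were 4.58 in Olfr543, 4.85 in Olfr544, 4.59 in Olfr545, 6.73 in Olfr547, 4.58 in Olfr549, 4.85 in Olfr550, 5.74 in Olfr551, 3.41 in Olfr552, 4.58 in Olfr553 and 5.12 in Olfr554. Of these 10, only Olfr552 had no peak with −log10 q of 5 or more (highest 3.65). The first 100 kb of the cluster held 42 summits, against 21 in the 100 kb just below it. Olfr544, a receptor also described outside the nose, had 7 peaks within 1 kb of a gene 4194 bp long, with folds of 3.23 to 4.85.

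Runs without a peak lay on both sides of the globin and Trim genes. Between those genes, a run of 6 members, Olfr631 to Olfr639, all had a peak. In Olfr632, Olfr633 and Olfr635 the only peak had a −log10 q below 5 (3.95, 2.83 and 3.95). The highest values in Olfr631, Olfr638 and Olfr639 were 8.44, 5.15 and 5.31. The only summit of Olfr639 lay outside the gene, 725 bp upstream. The longest run of neighbouring members without a peak went from Olfr610 to Olfr69 and held 18 genes over 266 kb, with 14 summits between them. A further run below the globin genes held 12 genes (Olfr585 to Olfr600). Above the Trim genes, runs held 10 genes (Olfr659 to Olfr671) and 7 genes (Olfr675 to Olfr683). The longest stretch of the cluster with no summit at all measured 96.05 kb, at chromosome 7, 105040394 to 105136443, and held 4 members. Among them Olfr679 lay 45325 bp from the nearest summit, the longest such distance of any member, against a median of 3049.5 bp over all members and 5950 bp over the 81 without a peak.

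The beta-globin genes, which encode a chain of haemoglobin, and the Trim genes divide the members into 3 stretches. Below the globin genes 25 of 73 members had a peak (34.2%, 23.5 to 46.3). Between the globin genes and Trim6 it was 11 of 18 (61.1%, 35.7 to 82.7), and above Trim30d 9 of 35 (25.7%, 12.5 to 43.3). All 3 shares lay below the 87.8% of all protein-coding genes. The 3 intervals overlap. The ratio of member density to intergenic density was 1.53 (1.04 to 2.21), 1.57 (0.729 to 3.27) and 1.06 (0.571 to 1.87) in the same order. Only the first interval lay above 1, just so, and these ratio intervals overlap. Members of the first stretch held 41 summits, against 13 and 16 in the others. With −log10 q of 5 or more, 18, 6 and 9 of these summits remained, in the same order. The median highest fold of members with a peak was 4.58, 3.85 and 4.85, lowest in the middle stretch. Shares of members were not computed by stretch at that threshold, so the higher share of the middle stretch rests on the full list. A difference between the stretches was not tested.

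**Figure D4:**
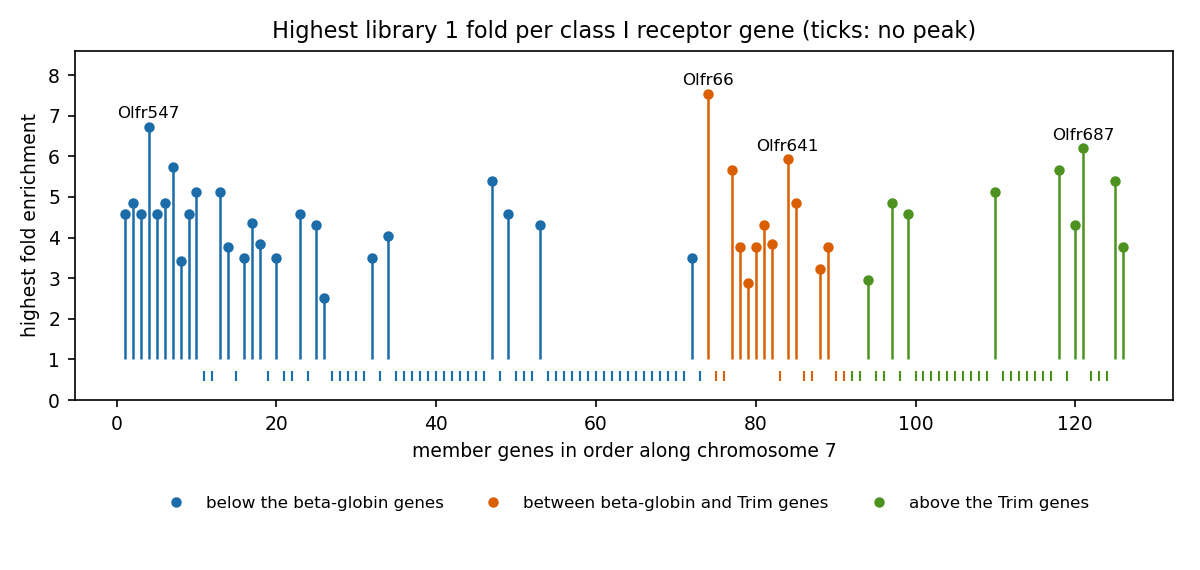
Highest fold enrichment among library 1 peaks assigned to each of the 126 members, in order along chromosome 7, coloured by stretch, with members without a peak as ticks near 0. Olfr66 is the highest (7.54), the first 10 members all carry a peak, and 18 members in a row before Olfr68 carry none.

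The highest fold of a member belonged to Olfr66, the first receptor gene above the globin genes (chromosome 7, 103881306 to 103882241). Its peak spans 103882952 to 103883306, where the fold reached 7.54 over 27 reads of pileup (17.8 to 39.3). The summit lay outside the gene, 829 bp upstream of the annotated start, and inside the pseudogene Dnajc19-ps, so the peak cannot be given to the receptor gene alone. On the other side of the globin genes, Olfr67 had no peak, with the nearest summit 9201 bp away, and Olfr68 had a single peak of fold 3.501. Olfr64 and Olfr65, next to Olfr66, had none.

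In the receptor genes ranked next, Olfr547, Olfr687 and Olfr641, the strongest summit lay in the body. Olfr547 had 2 peaks, with folds of 4.58 and 6.73, and the stronger had a pileup of 24 reads (15.4 to 35.7). Olfr687, whose annotated body of 48745 bp is the longest of the members, had 7 peaks with folds of 2.69 to 6.19. Olfr641 had a peak of fold 5.92 and pileup 21 (13.0 to 32.1), with the summit 80 bp inside the gene.

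Lower in the order came Olfr551 (5.74), Olfr631 and Olfr684 (both 5.66), Olfr601 and Olfr691 (both 5.39), the values being folds. A fold of 5.12 was shared by Olfr554, Olfr557 and Olfr672. In Olfr672 the summit lay beside the gene and not in it. The pileups of all 70 member peaks ran from 9 to 27 reads with a median of 15, and the counting interval of the lowest (4.12 to 17.1) ended just below that of the highest.

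Peaks in members were of ordinary height for library 1. Their median fold was 4.04, where that of the whole list was 3.90, and 33 of 70 (47.1%) had a −log10 q of at least 5, where 41.0% of all peaks did. At that threshold 29 members had a peak (23.0%), where 75.8% of all protein-coding genes did. When only the strongest 10% of library 1 peaks by fold were kept, 9 members had one (7.14%), where 50.2% of all protein-coding genes did. With 5 kb beyond either end in place of 1 kb, 76 members had a peak (60.3%), where 92.2% of all protein-coding genes did, and by any overlap of a peak 47 did, where 88% of all protein-coding genes did. The local background equalled the genome-wide level at 54 of the 70 peaks (77.1%), against 66.2% of all peaks of library 1. The median highest fold was 4.58 in the 45 members with a peak and 5.39 in all protein-coding genes with one. This value is the maximum over all peaks of a gene, and 33 of the 45 members had only 1, so it is not matched for peak number. The strongest peak of the whole cluster, at chromosome 7, 104833244 to 104833810, lay in no gene, 6526 bp from the ubiquitin protease gene Usp17lb, with a fold of 8.35.

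Of the members with a peak, 33 had 1, 6 had 2, 4 had 3 and 2 had 7. Those with 3 included Olfr78 and Olfr558, receptors known to be expressed outside the nose as well, in blood vessel and kidney cells among others. Olfr558 had folds of 3.501, 3.67 and 3.77, and Olfr78 of 2.69, 3.85 and 4.36. The peak of fold 3.85 lay in Olfr560 too, a receptor gene inside the annotated body of Olfr78, and was the only peak that belonged to 2 members.

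The start regions of the members were compared next. RefSeq sequences of 300 bases around the annotated start (250 before it, 50 after it; GRCm38.p6, the assembly of mm10) were at hand for 109 members. At 82 of these starts (75.2%) the first 3 bases were ATG, a start codon, against 5.83% of the 32851 start regions of all genes. For most members the annotated start is therefore the start of the coding sequence, and the region before it need not be the promoter. None of the members with a sequence had a summit in its start region (0 of 109, which allows a share of up to 2.75%). Of all start regions, 20.3% held one. In the other Olfr genes it was 15 of 835 (1.80%). A peak reached into the region without its summit in 8 members. The other 17 members had no sequence at hand and were not examined.

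The 4 regions below are shown because a library 1 peak reached into each of them. They are Olfr545 (the most bases under a peak, 109), Olfr641 (the highest fold), and Olfr558 and Olfr544, which are also described outside the nose. Letters run 5′ to 3′ on the strand of the gene, and capitals mark bases under a peak. The regions are chr7:102494724-102495023 (minus strand), chr7:104039548-104039847 (plus strand), chr7:102702073-102702372 (plus strand) and chr7:102488258-102488557 (minus strand).
Olfr545: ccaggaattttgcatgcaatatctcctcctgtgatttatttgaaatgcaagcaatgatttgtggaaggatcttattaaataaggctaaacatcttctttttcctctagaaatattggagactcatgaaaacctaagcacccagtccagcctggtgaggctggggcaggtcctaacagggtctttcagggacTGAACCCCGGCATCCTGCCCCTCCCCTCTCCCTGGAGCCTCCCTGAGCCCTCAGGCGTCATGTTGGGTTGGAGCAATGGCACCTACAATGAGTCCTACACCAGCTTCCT
Olfr641: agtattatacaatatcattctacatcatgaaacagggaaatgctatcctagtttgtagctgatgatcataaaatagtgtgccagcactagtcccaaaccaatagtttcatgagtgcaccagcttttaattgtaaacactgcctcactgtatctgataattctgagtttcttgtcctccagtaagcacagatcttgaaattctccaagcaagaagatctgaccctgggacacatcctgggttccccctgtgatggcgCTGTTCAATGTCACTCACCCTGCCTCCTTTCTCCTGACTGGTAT
Olfr558: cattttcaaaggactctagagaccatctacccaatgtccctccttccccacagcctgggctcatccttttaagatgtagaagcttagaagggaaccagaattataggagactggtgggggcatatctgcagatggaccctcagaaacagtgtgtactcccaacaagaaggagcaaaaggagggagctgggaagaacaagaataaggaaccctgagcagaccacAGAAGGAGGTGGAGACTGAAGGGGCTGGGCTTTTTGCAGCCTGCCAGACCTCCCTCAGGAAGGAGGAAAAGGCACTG
Olfr544: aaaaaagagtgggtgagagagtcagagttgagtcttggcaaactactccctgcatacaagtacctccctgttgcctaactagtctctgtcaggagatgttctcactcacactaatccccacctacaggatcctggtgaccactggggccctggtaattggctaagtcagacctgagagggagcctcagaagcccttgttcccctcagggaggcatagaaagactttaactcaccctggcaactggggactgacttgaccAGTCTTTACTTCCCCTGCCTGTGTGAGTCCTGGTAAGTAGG
In these 4 regions the capitals begin late, so the peaks reached in from the gene side. The number of bases under a peak was 109 in Olfr545, 44 in Olfr641, 77 in Olfr558 and 41 in Olfr544.

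Start regions of the members were poor in G and C. Their median GC content was 37.3% (25.3 to 51.7), against 35.0% in other Olfr genes and 52.7% in all start regions, and 35 of 109 held no CpG at all (32.1%, against 5.43% of all). In the 35 members with a peak the median GC content was 40.3% (middle 50% from 35.7 to 43.2), and in the 74 without it was 36.8% (34.1 to 39.3). The ranges overlap widely, from 29.7 to 51.7% and from 25.3 to 48.7%. Members with and without a peak were not matched for gene length, and no split limited to short members was made. The regions of Olfr544, Olfr558, Olfr545 and Olfr641 printed above were at 51.7, 51.3, 49.3 and 42.7%. The other regions that a peak reached, in Olfr601, Olfr605, Olfr642 and Olfr646, were at 37.3, 41.7, 42.7 and 43%.

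**Figure D5:**
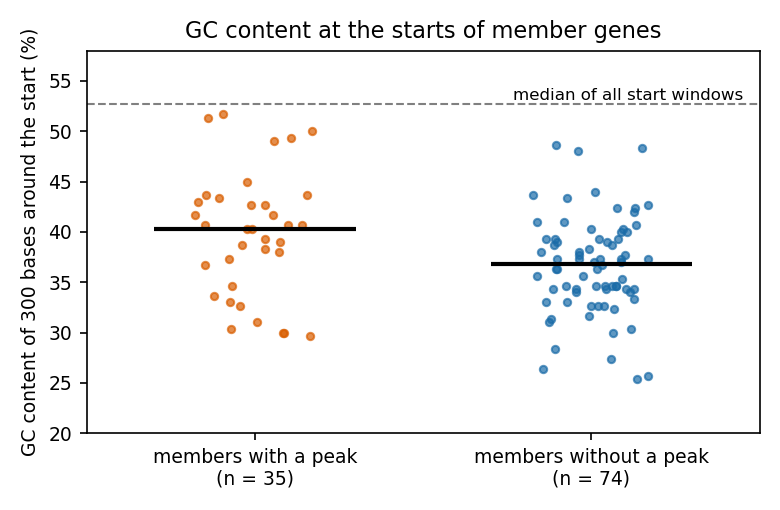
GC content (%) of the 300 bases around the annotated start, each point a member, for 35 members with and 74 without a library 1 peak, with medians as bars and the median of all start regions dashed. The medians are 40.3% and 36.8%, both below the 52.7% of all genes, and the points overlap.

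Short motifs were searched on both strands of the same regions. TATAAA, the core of the TATA box, was found in 43 of 109 members (39.4%), in 41.4% of the regions of other Olfr genes and in 13.6% of all start regions. By peak it was 7 of 35 members with a peak (20%) and 36 of 74 without (48.6%). These groups were not matched for gene length, and their GC content differed as given above. TAATTA, a motif of homeodomain factors such as Lhx2, was found in 16 members (14.7%), against 19.2% of other Olfr genes and 5.29% of all regions, in 14.3% of those with a peak and 14.9% of those without. CCCNNGGG, the core of sites for the Ebf (Olf-1) factors, was found in 3 members (2.75%), against 3.11% of other Olfr genes and 13.7% of all. For each of the 3 motifs the members' share was nearer to that of the other Olfr genes than to that of all regions. No matches of different motifs overlapped in the members' regions.

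Gene lists for olfaction and for the locus are set here against the 87.8% of all protein-coding genes that had a library 1 peak. Of 14 genes of olfactory signalling and receptor trafficking, 13 had a library 1 peak (92.9%), and the highest folds were 7.81 in Pde1c, a phosphodiesterase, and 7.27 in Adcy3, the adenylyl cyclase of the cilia, and in Ano2, a chloride channel. Cnga2, a channel subunit gene on the X chromosome, had none, and Omp, the marker of mature sensory neurons, had 4 peaks with a highest fold of 6.19. All 12 regulators of receptor choice had a peak, a share near that of all coding genes as in the signalling list, led by Ebf3 and Ebf4 (both 6.73) and by Bcl11b (6.46), a factor that acts in the choice between the receptor classes. Per Mb these lists held 303 (277 to 331) and 363 summits (328 to 400), where all protein-coding genes held 307, a value inside the first interval and below the second. The median gene length in these lists was 73976.5 and 56506.5 bp.

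Of the 5 beta-globin genes placed in the cluster, 4 had a peak, with folds of 4.58 in Hbb-bh2, 4.04 in Hbb-bt, 3.90 in Hbb-y and 3.77 in Hbb-bs, while Hbb-bh1 had none. With 1 kb around them these 5 genes held 8 summits, or 481 per Mb (208 to 948). With −log10 q of 5 or more, 1 of the 5 had a peak (20%, 0.505 to 71.6), where 75.8% of all protein-coding genes did. Of 13 Trim genes, which include antiviral factors, 12 had a peak, led by Trim34a (7.81), Trim30d (6.46) and Trim6 (5.92). The Trim list held 209 summits per Mb (159.5 to 269), below the 307 of all protein-coding genes. Of these 13, Trim3 lies in the higher flank and not in the cluster.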

How the data were processed

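Peak lists of 2 ChIP-seq libraries (1 group, E10.5 heads, GFP antibody) were used as deposited in narrowPeak format. Tools listed in the submitters' processing notes are MACS2 2.1.0, Bowtie 1.1.2, Trimmomatic 0.33 and bcl2fastq 2.17, with builds mm10 and hg38 and no roles or settings. Per library the authors deposited a whole-number score that follows −log10 q, the fold enrichment as a ratio, −log10 p-values and −log10 q-values, and a summit offset. These are the authors' values. Whether the lists were called against a control is not given in the sources used here.

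Genes came from a RefSeq table of GRCm38.p6. Of its protein-coding genes, 113 listed out of position order on their chromosome were taken to lie on other scaffolds and left out. Pileup and local background were solved from fold, (pileup + 1) / (background + 1), and its Poisson p-value, which matched within 0.002 for 100% of peaks in each list, and the method was tested on simulated data. Density is summits per Mb of merged intervals. Flanks were 1 Mb.

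The members and gene lists were chosen with earlier results of these data known. Genes were named for the 10 highest folds, the most peaks, cluster ends, the longest run without a peak, and places beside the globin genes. Others, such as Olfr78, were named after their values were seen. Protein identity, planned, was not used here. The alternatives were other windows, thresholds, flanks and intergenic definitions. Python 3.11.15, pandas 2.3.3 and scipy 1.17.1 were used.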

Additional observations from a re-analysis of the deposited data

How the results depend on the processing

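For 6 quantities, 24 alternative values were computed, and no ratio turned to the other side of 1. The number of members with a peak was 45 (35.7%, where 87.8% of all protein-coding genes had one). With 5 kb beyond either end it was 76 (60.3%, against 92.2% of all protein-coding genes). With −log10 q of at least 5 it was 29 (23.0%, against 75.8%). With the 10% of peaks of highest fold it was 9 (7.14%, against 50.2%). Other Olfr genes with a peak fell from 271 to 147 at −log10 q of at least 5. The ratio of member to intergenic density was 1.39, and it was 2.34 with gene bodies alone. With −log10 q of at least 5 it was 1.30 (0.852 to 1.95). With members under 2 kb only, an alternative chosen after seeing the data, it was 1.38 and its interval included 1 (0.978 to 1.92). The ratio of the cluster to its flanks was 0.440, and it was 0.342 against the lower flank alone and 0.617 against the higher flank alone. Without Trim6 to Trim30d, also chosen after seeing the data, it was 0.425. Leaving out each library in turn gave 0 to 45 members with a peak in either list. No paired analysis was possible because there is a single group. Depth limits single peaks, whose pileups of 9 to 27 reads carry wide counting intervals.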
